A study of Mus musculus with 17 samples.

Results

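CD8+ T cells taken out of coculture were set against CD8+ T cells taken from the spleen, and the genes described are those for which both coculture groups lay on the same side of both spleen groups. The coculture side held 9 arrays and the spleen side 8. A gene was a member when all 4 differences, LSEC-primed minus naive, LSEC-primed minus memory, effector minus naive and effector minus memory, ran the same way by at least 1 on the log2 scale (2-fold), each with a limma adjusted p under 0.05. Of 10383 genes tested, 332 (3.2%) met the rule, 246 of them higher in coculture (2.37%) and 86 lower (0.828%). These differences chose the members, so their sizes are given as a description. Each gene was represented by its probe with the highest mean level. Of 105 higher members with another tested probe, 28 had another probe that met the rule, and of 47 lower members 15 did. All other probes differed in the member's direction for 95 and 45 of these.

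All cells were CD8+ T cells of OT-I origin, which carry a transgenic receptor for an ovalbumin peptide, on the C57Bl/6 background from mice of 2 to 6 months. Naive cells (5 arrays) and memory cells (3 arrays), the latter recovered 3 months after infection with Listeria monocytogenes OVA, came from spleen. LSEC-primed cells, called Tpm in the labels (4 arrays), came from coculture with liver sinusoidal endothelial cells (LSEC), and effector cells, called Teff (5 arrays), from coculture with splenic dendritic cells. The source label of array Teff 8 names the spleen, while its title and cell type name activated effector cells, so the counts were also taken without it (242 higher and 84 lower). By these labels the coculture cells were cultured with antigen-presenting cells and the spleen cells were isolated directly, so activation, culture and the tissue of origin cannot be told apart in this design.

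A resting T cell is kept small and circulating by factors such as Klf2 and Foxo1, burns little fuel and does not divide. Activation through the antigen receptor switches on growth, glycolysis, amino acid and lipid synthesis and then rapid division, and brings inhibitory receptors such as Lag3 to the surface. Spleen is rich in red blood cells, whose globin RNA can be carried into a preparation of its lymphocytes.

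Levels are log2 intensities after background correction and quantile normalization, on which the lowest level of any probe above background was 4.67 to 5.02 by array and 6.46 on memory 5. The mean raw signal of an array was between 227 and 471 except on memory 3 (140) and memory 5 (96.7), and 30.6% to 38.0% of probes were above background except on memory 5 (19.7%). All 11 tested genes of the CD8 T-cell receptor complex list were above background on all 17 arrays, with Cd247 lowest at a group mean of 7.42. Whether the arrays of a group stem from different animals or cultures is not in the labels, and p-values here reflect no more than how far these samples spread, which may be technical, and the number of arrays limits the precision. In bulk RNA, fewer cells of a type and less RNA per cell cannot be told apart.

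Both dim arrays were memory arrays, and memory 3 stood nearer to the coculture arrays than the other spleen arrays for the leading genes. It was the highest of the 8 spleen arrays for 59 of the 246 higher members, beside 56 for naive 2 and 7 to 36 for the other 6, and its mean level over those members was 6.33 against 5.86 to 6.30. Without memory 3 the rule gave 253 higher and 86 lower genes, 226 and 80 of them members. Without memory 3 and memory 5 together, which leaves 1 memory array whose spread is assumed to be that of the other groups, it gave 224 and 75, of which 195 and 63 were members.

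Lag3 and Kit, both surface receptors, had the largest differences among the members higher in coculture. The median difference of the 246, as the mean of both coculture groups minus the mean of both spleen groups, was 2.21, and 148 exceeded 2, 44 exceeded 3 and 8 exceeded 4 on the log2 scale. For 200 of the 246 every coculture array lay above every spleen array, against 4.51% of all genes tested. For 57 of the 246 a spleen group was above background on no array, and with those held to the bound described next the median was 2.15.

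Where a group of the dimmer side was above background on none of its arrays, the ratio is given as a bound, "at least N-fold", computed against the lowest level of any probe above background on each array or the gene's own level if higher. Values are given in the order of the array numbers: naive 1, 2, 11, 12 and 13, memory 3, 5 and 9, Tpm 4, 7, 14 and 15, and Teff 6, 8, 10, 16 and 17. Kit, the receptor for stem cell factor, was at 5.73, 4.77, 6.32, 4.85 and 4.66 on the naive arrays, 8.67, 4.87 and 4.39 on memory arrays 3, 5 and 9, 10.08, 10.44, 12.00 and 10.52 on the Tpm arrays and 11.25, 11.50, 10.89, 11.53 and 11.96 on the Teff arrays. All coculture arrays lay above all spleen arrays, memory 3 coming nearest. The difference was 5.47 ± 0.48 (SE), a 44.4-fold higher level, with 0.00015 as the largest of the 4 limma adjusted p-values. Kit was above background on 2 naive arrays and 1 memory array, so this size rests partly on values at background and is approximate. The same holds for Lag3 (2 naive arrays and 1 memory array) and for Cables1, Bcat1 and Slc2a6 (1 and 1). A second Kit probe differed by 1.25.

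Lag3, an inhibitory receptor that binds MHC class II, read 5.03, 4.32, 5.19, 4.28 and 4.21 on the naive arrays, 9.22, 4.19 and 4.54 on memory arrays 3, 5 and 9, 10.05, 9.75, 10.60 and 11.28 on the Tpm and 11.21, 11.25, 10.79, 11.65 and 11.82 on the Teff arrays. Memory 3 was the nearest spleen array, below the lowest Tpm array, and the other 7 read between 4.19 and 5.19. The difference was 5.59 ± 0.52 (largest limma adjusted p 0.00061), and without memory 3 it was 6.40 for Lag3 and 6.15 for Kit. Cd200, a ligand that restrains myeloid cells, was between 7.91 and 9.18 in coculture (median 8.29) and between 4.38 and 6.40 in spleen (median 4.97). Lag3 and Cd200 were the 2 members among 12 tested co-inhibitory receptors, whose median difference was 0.65 against 0.07 for all genes. Ctla4, another of these receptors, differed by 2.46 without passing in all 4 contrasts (largest limma adjusted p 0.078), and Pdcd1, which encodes PD-1, by 0.19.

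Nrn1, a lipid-anchored protein named for its role in neurons, was at 4.44, 4.67, 4.68, 4.29 and 4.23 on the naive arrays, 6.07, 4.27 and 4.13 on memory 3, 5 and 9, 8.51, 8.16, 7.99 and 8.23 on Tpm and 10.50, 10.52, 10.09, 10.51 and 10.12 on Teff arrays. It was at least 22-fold higher in coculture, as no naive array was above background. Cables1, an adaptor of cyclin-dependent kinases, was between 9.49 and 10.49 in coculture and between 4.28 and 7.07 in spleen, a difference of 4.92 ± 0.29. Synpo, an actin-binding protein, differed by 3.70 ± 0.31 and was higher in Tpm than in Teff cells by 2.13 (limma adjusted p 0.00087). For each of Kit, Lag3, Cables1, Nrn1, Cd200, Synpo, Egfl7 and Bcat1 the highest spleen array was memory 3.

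**Figure D1:**
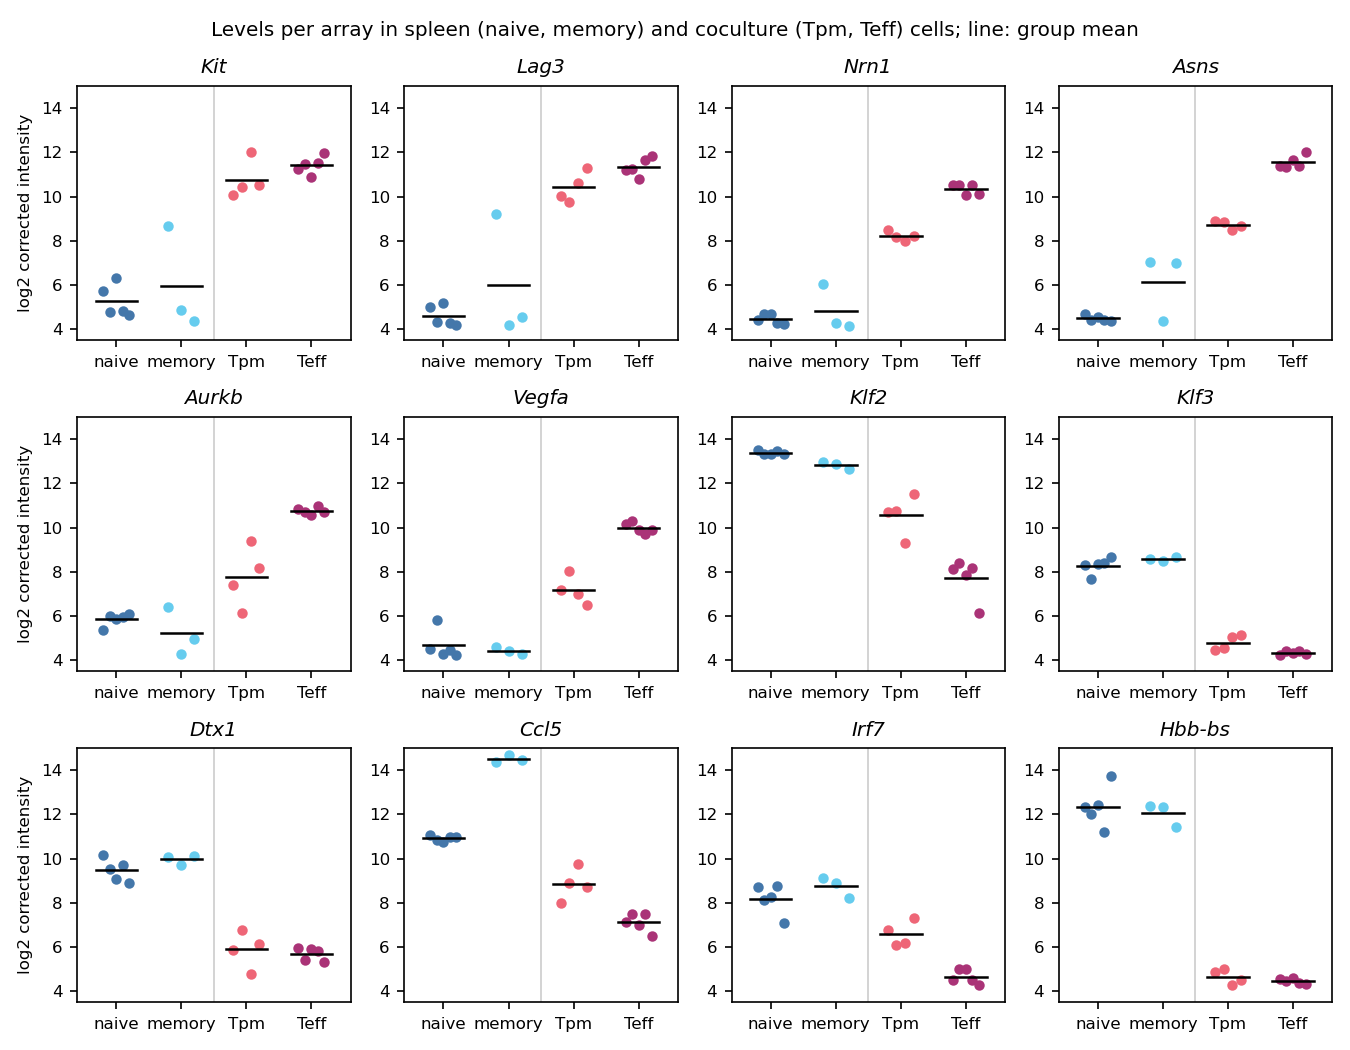
Levels of 12 named members on each of the 17 arrays, as log2 corrected intensity, for naive and memory cells from spleen and Tpm and Teff cells from coculture; each point is 1 array and each line a group mean. Kit, Lag3, Nrn1, Asns, Aurkb and Vegfa lie higher in coculture and Klf2, Klf3, Dtx1, Ccl5, Irf7 and Hbb-bs lower, with 1 memory array at 8.67 for Kit and 9.22 for Lag3.

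Cell division genes formed the largest group among the lists. Each list count here and below is to be read beside 2.37% of all genes called higher and 0.828% called lower. A single member of a list says little about that list. Of 17 tested genes of mitosis and the spindle, 11 rose and none fell, with a median difference of 2.86 against 0.07 over all genes and 2.37% of all genes called higher. The 11 were the kinases Plk1, Aurka, Aurkb, Cdk1 and Bub1b, the spindle proteins Tpx2, Nusap1, Kif11 and Prc1, the anaphase activator Cdc20 and survivin, Birc5. The 6 that were not called included Top2a, which differed by 3.29, and Ccna2, which differed by 0.69. On single arrays the mean of the list was 6.11 to 6.64 in naive, 5.18 to 6.03 in memory, 6.98 to 8.51 in Tpm and 9.32 to 9.68 in Teff cells, with Tpm 14 the highest of the Tpm arrays. The list's median stayed positive under each other scaling and in the authors' processed values, which called 6 to 9 of its genes.

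Cdk1, the kinase that drives entry into mitosis, read 5.77, 6.00, 5.76, 5.91 and 6.24 on the naive arrays, 6.16, 5.32 and 5.64 on memory 3, 5 and 9, 7.64, 6.07, 9.22 and 7.85 on Tpm 4, 7, 14 and 15 and 9.95, 9.79, 10.15, 10.31 and 10.23 on the Teff arrays. Teff arrays were well above all spleen arrays, whereas Tpm 7 fell inside the spleen range. The difference was 3.07 ± 0.30 (largest limma adjusted p 0.0037), and the call was lost without memory 3 and memory 5 together. Aurkb, a kinase of chromosome segregation, ran from 6.13 to 9.39 in Tpm and from 10.56 to 10.99 in Teff cells, against 4.31 to 6.42 in spleen, where memory 3 was highest and above Tpm 7. Tpx2, which activates Aurora A at the spindle, showed no overlap, with 6.78 as the lowest coculture value and 6.26 as the highest spleen value. Nusap1, a microtubule-bundling protein, differed by 3.56 ± 0.31, and its other 2 probes by 1.38 and 0.42.

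Genes of late cell division often carry a short promoter element called CHR, read by the complexes that hold these genes silent in resting cells. Promoter windows from RefSeq (build GRCm38.p6, 250 bases before to 50 after the annotated start) were available for 9 of the 11 mitosis members, and the CHR letters TTTGAA were present on either strand in 7 of the 9 (77.8%). The same letters were found in 18.1% of all 27025 promoter windows, 12.0% of those of tested genes, 21.2% of those of higher members (41 of 193 matched) and 9.09% of those of lower members (6 of 66). CCAAT, the letters of the box often found beside it, occurred in the same 7 windows, against 37.9% of all windows. Other letters were searched too. The E2F letters TTTNNCGC were in 11.1% of the mitosis members' windows and 8.58% of those of tested genes. The letters ACGTG of the hypoxia response element were in 33.3% and 26.3%. Mitosis genes that were not called were not counted apart, so whether the CHR share is particular to the members was not tested. A match describes letters in a window and no binding was measured. Cdc20 (chr4:118437294-118437593, minus strand), Cdk1 (chr10:69352863-69353162, minus strand) and Plk1 (chr7:122159185-122159484, plus strand) are shown because these 3 regulators carry the element in the forward sense, in capitals, Cdk1 with 2 copies.
Cdc20: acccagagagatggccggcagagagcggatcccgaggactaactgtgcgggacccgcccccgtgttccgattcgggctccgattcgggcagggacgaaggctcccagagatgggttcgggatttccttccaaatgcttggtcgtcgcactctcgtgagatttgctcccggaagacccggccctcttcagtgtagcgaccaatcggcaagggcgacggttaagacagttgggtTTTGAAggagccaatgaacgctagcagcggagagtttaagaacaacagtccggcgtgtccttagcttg
Cdk1: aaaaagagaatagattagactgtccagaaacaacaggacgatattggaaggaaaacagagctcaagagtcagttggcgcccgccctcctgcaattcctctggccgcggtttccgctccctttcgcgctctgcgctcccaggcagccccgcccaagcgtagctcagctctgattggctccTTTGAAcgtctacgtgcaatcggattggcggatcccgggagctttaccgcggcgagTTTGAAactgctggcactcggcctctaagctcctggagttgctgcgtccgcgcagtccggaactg
Plk1: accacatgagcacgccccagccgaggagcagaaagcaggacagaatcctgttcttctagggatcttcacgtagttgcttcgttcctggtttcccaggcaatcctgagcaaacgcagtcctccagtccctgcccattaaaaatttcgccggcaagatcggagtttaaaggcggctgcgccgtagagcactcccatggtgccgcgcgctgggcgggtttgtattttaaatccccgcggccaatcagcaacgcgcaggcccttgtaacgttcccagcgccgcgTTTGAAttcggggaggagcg

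DNA replication gave fewer members. Of 28 tested, 6 rose and none fell, with a median difference of 1.12: Mcm10, Cdc45, Gins1, Gins2 and Gins3, which assemble or drive the replicative helicase, and Chaf1a, which places histones on new DNA. Mcm10 was between 7.65 and 10.63 in coculture (median 10.34) and between 4.75 and 6.52 in spleen (median 6.05). Its second probe differed by 1.84 and did not meet the rule. The core helicase subunits Mcm2 to Mcm7 were not called, with differences of 0.80 for Mcm2, 1.38 for Mcm5 and 1.36 for Mcm7. The call for Chaf1a was lost without Tpm 14, and under the authors' processed values 1 of the 28 genes was called.

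Nucleotide synthesis and cell cycle control gave 4 further members. Shmt1, a folate-cycle enzyme, was between 7.35 and 9.24 in coculture and between 4.47 and 6.54 in spleen. Tyms, which makes thymidylate, differed by 2.05 ± 0.24, and Tpm 7 and memory 3 met at 7.07. Pfas, of purine synthesis, differed by 1.29 ± 0.14, while its second probe differed by 0.03 and its call was lost without Tpm 4. These 3 were the members among 21 nucleotide synthesis genes (median 0.93), and Cdkn1a, the inhibitor p21, was the 1 member among 19 G1 and S phase regulators (median 0.83). Of all genes 2.37% were called higher, so the 1 member says little about the latter list. Cdkn1a ran from 6.34 to 9.23 in Tpm and from 8.92 to 10.29 in Teff cells against 4.51 to 6.45 in spleen, and its call was lost without memory 9, naive 13 or Tpm 14. Its other probes differed by 1.82 and 0.84 and did not meet the rule.

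Uhrf1, which maintains DNA methylation as DNA is copied, was the 1 member among 12 chromatin genes. It read between 10.31 and 12.15 in coculture and between 7.88 and 9.74 in spleen, without overlap, a difference of 2.37 ± 0.17.

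**Figure D2:**
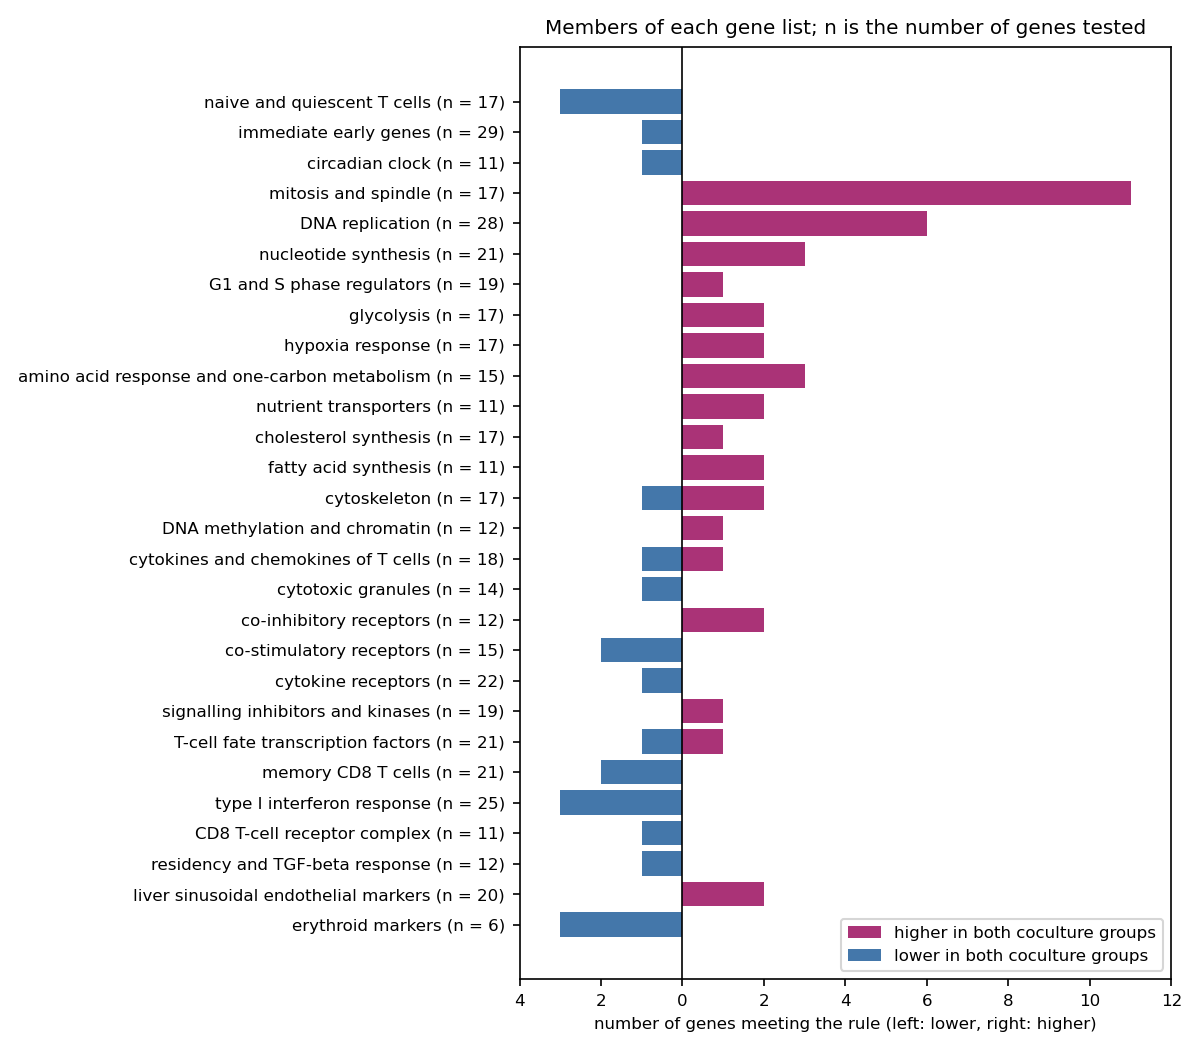
Number of genes of each list that met the rule, higher in both coculture groups to the right and lower to the left, with the number of genes tested beside each name; lists without a member are not drawn. Mitosis and spindle has 11 higher members of 17 and DNA replication 6 of 28, while the 3 erythroid and 3 naive and quiescent members are all lower.

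Metabolic members were few. Asns, which makes asparagine and is induced when amino acids run short, was at 4.70, 4.42, 4.58, 4.41 and 4.38 on the naive arrays, 7.05, 4.39 and 7.02 on memory 3, 5 and 9, 8.91, 8.87, 8.48 and 8.66 on Tpm and 11.39, 11.35, 11.65, 11.40 and 12.00 on Teff arrays. No naive array and not memory 5 were above background, memory 3 and memory 9 were, and every Teff array lay above every Tpm array. The level was at least 25.2-fold higher in coculture (largest limma adjusted p 0.00033), and the other 2 probes of Asns differed by 1.34 and 3.40. Psat1, of serine synthesis, was between 10.20 and 12.31 in coculture and between 7.44 and 9.14 in spleen. Mthfd2, a mitochondrial folate enzyme, differed by 2.00 ± 0.16, and its call was lost without memory 5. These were the 3 members among 15 genes of amino acid stress and the folate cycle (median 1.14). The list held 3 members under each other scaling and in the authors' values, although median scaling lost Mthfd2. Ddit4 differed by 3.57 without passing (largest limma adjusted p 0.13), and Atf4, the transcription factor of this response, by -0.57.

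Stress-induced amino acid genes can carry an element of the form TGATGNAA, to which Atf4 binds with a partner. It was present on either strand in the window of Asns and in neither Psat1 nor Mthfd2, against 2.36% of the windows of tested genes and 3.11% of those of higher members. The Asns window (chr6:7693160-7693459, minus strand) is shown because its level differed most among the 3 members, with the match in capitals.
Asns: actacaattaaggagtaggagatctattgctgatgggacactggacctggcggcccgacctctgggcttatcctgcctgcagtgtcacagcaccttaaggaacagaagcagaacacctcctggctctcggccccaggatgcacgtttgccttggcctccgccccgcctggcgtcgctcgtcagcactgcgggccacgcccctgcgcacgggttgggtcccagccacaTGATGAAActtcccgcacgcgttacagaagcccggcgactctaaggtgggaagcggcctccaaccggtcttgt

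Vegfa, an angiogenic growth factor, and Egln3, an oxygen-sensing prolyl hydroxylase, were the 2 members among 17 hypoxia response genes (median 1.36). The list's mean was 8.8 to 9.0 on Teff and 6.5 to 6.9 on Tpm arrays, against 6.1 to 6.4 on naive and 6.1 to 6.3 on memory arrays. Vegfa read 4.53, 5.82, 4.30, 4.48 and 4.26 on the naive arrays, 4.59, 4.40 and 4.28 on memory, 7.18, 8.05, 6.99 and 6.52 on Tpm and 10.15, 10.29, 9.90, 9.71 and 9.89 on Teff arrays, and naive 2 was the single spleen array above background. It was at least 11.6-fold higher in coculture (largest limma adjusted p 2.1e-05). A second Vegfa probe differed by 1.98 and did not meet the rule. Egln3 was between 7.63 and 12.07 in coculture and between 5.03 and 7.39 in spleen, and its other probes differed by 0.63 and 0.90.

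Glycolysis had a median difference of 1.57 over 17 genes, yet 2 members. Tpi1, triose phosphate isomerase, was between 9.02 and 11.17 in spleen, 11.30 and 12.37 in Tpm and 13.76 and 13.95 in Teff cells, and its call was lost without memory 9. Pgam1, phosphoglycerate mutase, differed by 2.39 ± 0.18, with the call lost without any 1 of memory 5, memory 9, Tpm 14 or Tpm 15. The list's mean was 7.86 to 8.47 on naive, 8.24 to 9.20 on memory, 8.55 to 9.50 on Tpm and 10.92 to 11.26 on Teff arrays, so that memory and Tpm arrays overlapped and Teff arrays stood apart. Without memory 3 and memory 5 the list had 5 members.

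Lipid and uptake genes gave 5 members. Sqle, a rate-limiting step of cholesterol synthesis, was between 7.94 and 11.37 in coculture and between 5.85 and 7.42 in spleen, the 1 member among 17 cholesterol genes (median 1.40). The mean of these 17 genes was 8.6 to 8.8 on Teff arrays and 6.3 to 6.9 on Tpm arrays. On naive arrays it was 6.3 to 6.4 and on memory arrays 6.0 to 6.4, so that Teff arrays stood apart. The desaturases Fads1 and Scd2, the 2 members among 11 fatty acid synthesis genes, differed by 2.07 ± 0.15 and 2.92 ± 0.19. Tfrc, the transferrin receptor, and Slc29a1, a nucleoside transporter, were the 2 members among 11 nutrient transporters, with differences of 2.18 ± 0.23 and 1.59 ± 0.28. The call for Tfrc was lost without Tpm 14, and that for Slc29a1 without memory 5.

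Outside the lists, Bcat1, which transaminates branched-chain amino acids, was between 7.28 and 9.66 in coculture and between 4.25 and 6.74 in spleen. Slc2a6, of the hexose transporter family, differed by 2.61 ± 0.16 and Aldh2, the mitochondrial aldehyde dehydrogenase, by 2.39 ± 0.34. Hmgn3, a nucleosome-binding protein, was at least 6.11-fold higher, Dmwd at least 10.4-fold higher, and Bnip5 differed by 2.63 ± 0.23. None of these 6 had coculture and spleen arrays that overlapped.

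Among signalling and effector genes, Irf8, an interferon regulatory factor, was between 8.73 and 10.28 in coculture and between 4.99 and 8.04 in spleen, with memory 3 the highest. Rgs16, a brake on G-protein signals, differed by 2.88 ± 0.19. Xcl1, a chemokine that attracts cross-presenting dendritic cells, was at 6.56, 5.42, 6.86, 5.94 and 5.07 on the naive arrays, 10.16, 8.87 and 7.75 on memory 3, 5 and 9, 11.87, 11.64, 11.96 and 11.65 on Tpm and 9.88, 10.47, 10.45, 10.28 and 10.62 on Teff arrays. The lowest Teff array was below memory 3, and the call for Xcl1 was lost without memory 9. Of the cytoskeleton list (17 genes), Tubb6, a beta tubulin, differed by 4.43 ± 0.30, and Myo1e, a membrane-linked myosin, by 1.33 ± 0.23, the latter lost without naive 2, Tpm 14, Tpm 15 or Teff 16. A second Myo1e probe differed by 0.11.

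The lower members were led by globins. Hbb-bs, a beta globin of red blood cells, was at 12.32, 12.03, 12.42, 11.21 and 13.75 on the naive arrays, 12.40, 12.32 and 11.42 on memory, 4.85, 5.02, 4.29 and 4.49 on Tpm and 4.54, 4.46, 4.59, 4.39 and 4.34 on Teff arrays. Every spleen array was bright and 8 of 9 coculture arrays were not above background. Hbb-bs was at least 178-fold lower, Hbb-bt at least 139-fold and Hba-a1 at least 96.1-fold lower in coculture, with 2.1e-08 as the largest limma adjusted p of the 3 genes. The sequences of globin copies are close to each other, so the probes may not separate them. They are 3 of 6 tested erythroid markers, and the list's mean was 7.88 to 10.58 on naive, 7.88 to 9.18 on memory, 4.32 to 4.47 on Tpm and 4.27 to 4.43 on Teff arrays.

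Beyond the globins, the lower members held transcription factors, signalling proteins and effector genes. The median difference of all 86 was -1.90, 41 exceeded 2 in size and 12 exceeded 3. For 67 of the 86 every coculture array lay below every spleen array, against 1.72% of all genes tested.

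Klf2 and Klf3, transcription factors of resting lymphocytes, and Rasa3, which switches off the integrin activator Rap1, were the 3 members among 17 tested genes of naive and quiescent T cells (median -1.22). The list's mean was 10.1 to 10.5 on naive, 8.7 to 9.4 on memory, 8.6 to 8.9 on Tpm and 7.8 to 8.3 on Teff arrays. Memory and Tpm arrays thus overlapped. Klf2, which maintains exit and homing receptors, was at 13.49, 13.31, 13.33, 13.45 and 13.31 on the naive arrays, 12.95, 12.86 and 12.64 on memory, 10.69, 10.74, 9.29 and 11.54 on Tpm and 8.11, 8.41, 7.87, 8.19 and 6.12 on the Teff arrays, where Teff 17 was lowest. The levels did not overlap, and Klf2 fell by 3.95 on the log2 scale (SE 0.31, largest limma adjusted p 0.0019). The call for Klf2 was lost without memory 3 and memory 5 together and under scaling of arrays on their median.

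Klf3 was at 8.32, 7.66, 8.36, 8.39 and 8.67 on the naive arrays, 8.60, 8.49 and 8.67 on memory, 4.45, 4.54, 5.05 and 5.15 on Tpm and 4.23, 4.43, 4.33, 4.44 and 4.31 on Teff arrays. It was above background on 2 of 4 Tpm arrays and on no Teff array, and at least 12.5-fold lower there (largest limma adjusted p 2.2e-09). Rasa3 fell by 2.19 (SE 0.17), with the call lost without Tpm 14. Of the list's other genes, Il7r, the survival cytokine receptor, differed by -1.35 ± 0.19 and was not called by the probe used, while 2 of its 4 other probes met the rule (-1.93 and -2.17), Foxp1 differed by -1.41, and Ccr7, a lymph node homing receptor, was lower in both coculture groups than in naive cells and higher than in memory cells in each of the 4 limma contrasts. Relative to the median of all genes the list's median was -1.29, and it was -0.83 in the authors' values and -0.88 under median scaling.

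Dtx1, a Notch-linked ubiquitin ligase, was at 10.18, 9.53, 9.08, 9.71 and 8.88 on the naive arrays, 10.08, 9.70 and 10.11 on memory, 5.85, 6.79, 4.80 and 6.15 on Tpm and 5.97, 5.44, 5.92, 5.84 and 5.33 on Teff arrays. Every coculture array was at least 2 log2 units below every spleen array, and Dtx1 fell by 3.92 (SE 0.24, largest limma adjusted p 6.4e-07). Axin2, a feedback target of Wnt signalling, was between 4.52 and 6.18 in coculture and between 7.41 and 8.69 in spleen. Bcl9l, a co-activator of beta-catenin, fell by 2.71 (SE 0.25), but its second probe differed by -0.09. Nr1d2, a repressor of the circadian clock and the 1 member among 11 clock genes, fell by 2.92 (SE 0.31), and Tpm 7 was highest of the coculture arrays at 7.56. A second Nr1d2 probe differed by -0.94 and did not meet the rule.

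Rap1gap2, another inactivator of Rap1, was between 6.84 and 10.03 in spleen and between 4.23 and 5.38 in coculture, at least 11.5-fold lower. Flna, the actin cross-linker filamin A, fell by 2.26 (SE 0.31), with Tpm 15 above naive 2. Hs3st3b1, a heparan sulfate sulfotransferase, fell by 2.60 (SE 0.19). Lilr4b, an inhibitory receptor, was between 4.33 and 7.40 in Tpm cells, where Tpm 14 lay above naive 2 and naive 13 (5.68). A second Lilr4b probe differed by -0.85 and did not meet the rule. Amy2a5, a pancreatic amylase gene, fell by 2.72 (SE 0.44), its second probe differed by -0.32, and its call was lost without memory 3 and memory 5 together.

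Ccl5 and Gzmm were the only lower members of the lists of memory CD8 T cells, T-cell cytokines and cytotoxic granules. The median difference was 0.13 over 18 cytokine genes and -0.07 over 14 granule genes. Ccl5, a chemokine stored by memory CD8 T cells, read 11.08, 10.85, 10.74, 10.98 and 10.99 on the naive arrays, 14.36, 14.70 and 14.45 on memory, 7.99, 8.91, 9.74 and 8.71 on Tpm and 7.13, 7.52, 7.02, 7.50 and 6.50 on Teff arrays. The 4 groups were in the order memory, naive, Tpm and Teff without overlap, and Ccl5 fell by 4.73 (SE 0.20, largest limma adjusted p 1.8e-05). Gzmm, granzyme M, was at least 12.7-fold lower in coculture and was the 1 member among 14 cytotoxic granule genes. Both are the members among 21 genes of memory CD8 T cells (median -1.04), and both were higher in memory than in naive cells, by 3.57 and 3.35 (limma adjusted p 1.2e-07 and 4.4e-10). The list's mean was 10.25 to 10.72 on memory arrays and 7.46 to 7.64 on naive arrays. It was 7.48 to 7.76 on Tpm and 7.50 to 7.93 on Teff arrays, so that the coculture arrays lay near the naive arrays.

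Smad3, a transducer of TGF-beta signals, fell by 2.72 (SE 0.15) and Tnfrsf25, a death-domain costimulator, by 3.09 (SE 0.16). Cd2, an adhesion and costimulatory receptor and the 1 member among 11 genes of the receptor complex list, was between 8.74 and 10.21 in coculture and between 10.36 and 11.61 in spleen. Runx1, a transcription factor of T-cell development, fell by 1.85 (SE 0.20) and Ifngr2, a chain of the interferon-gamma receptor, by 1.90 (SE 0.27).

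Type I interferon genes fell in part. Of 25 tested, 3 fell and none rose, with a median of -0.82, against 0.828% of all genes called lower. The list's mean was 5.7 to 5.8 on Teff and 6.8 to 7.0 on Tpm arrays, against 6.6 to 7.9 on naive and 7.0 to 7.4 on memory arrays. Irf7, the factor that amplifies the interferon response, was at 8.69, 8.12, 8.27, 8.74 and 7.07 on the naive arrays, 9.12, 8.88 and 8.24 on memory, 6.76, 6.11, 6.17 and 7.30 on Tpm 4, 7, 14 and 15 and 4.52, 5.00, 5.02, 4.49 and 4.29 on Teff arrays. Tpm 15 lay above naive 13, and Irf7 fell by 2.84 (SE 0.24, largest limma adjusted p 0.0013). Ddx58, the RNA sensor RIG-I, fell by 1.65 (SE 0.27), and Ifit3, an antiviral effector, was at least 11.6-fold lower in coculture because no Teff array was above background. A second Ddx58 probe differed by -0.36 and a second Ifit3 probe by -1.23, and neither met the rule. Without memory 3 and memory 5, and under median scaling, none of the 3 was called, Ddx58 was lost without memory 3, Tpm 4 or Tpm 7, and Ifit3 (largest limma adjusted p 0.047) was lost without 14 of the 17 arrays, each left out in turn.

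Several genes used to stage T cells did not meet the rule. Cd44, an activation antigen, was between 6.44 and 7.12 on naive arrays, 8.88 and 9.76 on memory, 7.68 and 8.79 on Tpm and 8.58 and 9.63 on Teff arrays, so that both coculture groups lay above naive cells and neither above all memory arrays. Il2ra, the high-affinity IL-2 receptor chain, was 4.26 to 5.24 on naive, 5.60 to 6.04 on Tpm, 7.31 to 7.68 on memory and 9.36 to 9.84 on Teff arrays. Tbx21 and Ifng, the Th1-type factor T-bet and its cytokine target, were highest in memory cells, at 10.26 to 10.37 and 9.86 to 11.00. Myc, a driver of growth, differed by 0.92 ± 0.20 and was not called. Prf1 (perforin), Eomes, Cd69, Il2rb and Cxcr4 were not called either, with differences between -2.24 for Eomes and 0.01 for Il2rb.

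Immediate early genes are induced within minutes of a stimulus or of tissue handling. Of 29 tested, Ier2 was called lower, at least 2.35-fold, and none higher, with a list median of -0.75. Of all genes 0.828% were called lower, so the 1 member says little about the list. The list's mean was 8.8 to 9.6 on naive arrays. On memory arrays it was 7.1 to 8.1, overlapping Tpm (7.6 to 7.9) and Teff arrays (7.7 to 8.1). The call for Ier2 was lost without naive 1, memory 5, naive 11 or Teff 17. Fos was at 12.36, 12.39, 12.27, 11.52 and 11.43 on the naive arrays, 11.14, 11.45 and 7.72 on memory 3, 5 and 9, 9.50, 9.80, 7.58 and 9.68 on Tpm 4, 7, 14 and 15 and 8.83, 8.44, 8.43, 8.28 and 5.27 on the Teff arrays. Memory 9 fell among the coculture arrays, and Fos, which differed by -2.56 ± 0.56, was not called (largest limma adjusted p 0.45). Dusp1, a phosphatase of the same response, was not called with all arrays and was called without memory 9, while Jun, Junb and Egr1 were not called. Heat shock genes (12 tested) had no member, and Hspa8 was between 12.87 and 13.39 in spleen and between 13.04 and 13.42 in coculture. The glucocorticoid response list (11 tested) had no member, with Per1 differing by -0.46 ± 0.37. Tsc22d3 differed by -1.77 ± 0.14 and was not called by the probe used, but its other probe, which differed by -2.31, met the rule.

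A further 11 function lists had no member although many of their genes were measured. Of proteasome subunits 27 were tested (median 0.42), of the TCA cycle 18 (0.48), of fatty acid oxidation 17 (0.52), of Myc and ribosome biogenesis 17 (-0.22), of chemokine receptors and trafficking 20 (-0.45), of NK-type receptors 12 (-1.10) and of the interferon-gamma response 16 (0.54). The NK-type list averaged 7.9 to 8.9 on memory arrays, against 5.4 to 6.0 on naive, 6.1 to 6.4 on Tpm and 6.0 to 6.2 on Teff arrays. ER chaperones, the antioxidant response, Gimap GTPases and apoptosis regulators also had none.

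The members differed between the coculture groups. Among the 246 higher members, 101 (41.1%) were higher in Teff than in Tpm cells by the limma contrast of these groups, against 7.88% of all genes, and 6 were lower. The median Teff minus Tpm difference was 0.71 over the higher members and -0.04 over all genes. Among the 86 lower members 15 (17.4%) were lower in Teff cells, against 7.61% of all genes, and none higher. This contrast uses the arrays that chose the members, so the counts describe them. Tubb6, Egln3, Aurkb, Asns and Vegfa were higher in Teff cells by 3.37, 3.23, 2.98, 2.83 and 2.80, whereas for Kit and Lag3 the difference was 0.66 and 0.93 and was not called (limma adjusted p 0.51 and 0.37). On their own, Teff cells were beyond both spleen groups for 1051 genes upward (10.1%) and 539 downward (5.19%), and Tpm cells for 484 (4.66%) and 128 (1.23%), 2 comparisons that share the 8 spleen arrays.

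The memory minus naive contrast was taken over the same members. Of the higher members 9 were higher and 13 lower in memory than in naive cells, 8.94% together against 12.8% of all genes (5.7% higher and 7.11% lower). Of the lower members 9 (10.5%) were higher in memory cells, against 5.7% of all genes, and none lower. Ccl5, Gzmm, Rap1gap2 (2.67), Smad3 (1.99) and Tnfrsf25 (1.63) were among those 9. As for Teff minus Tpm, this contrast uses arrays that chose the members, so the shares are descriptions. Without memory 3 and memory 5 a single memory array is left, so no shares are compared there.

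**Figure D3:**
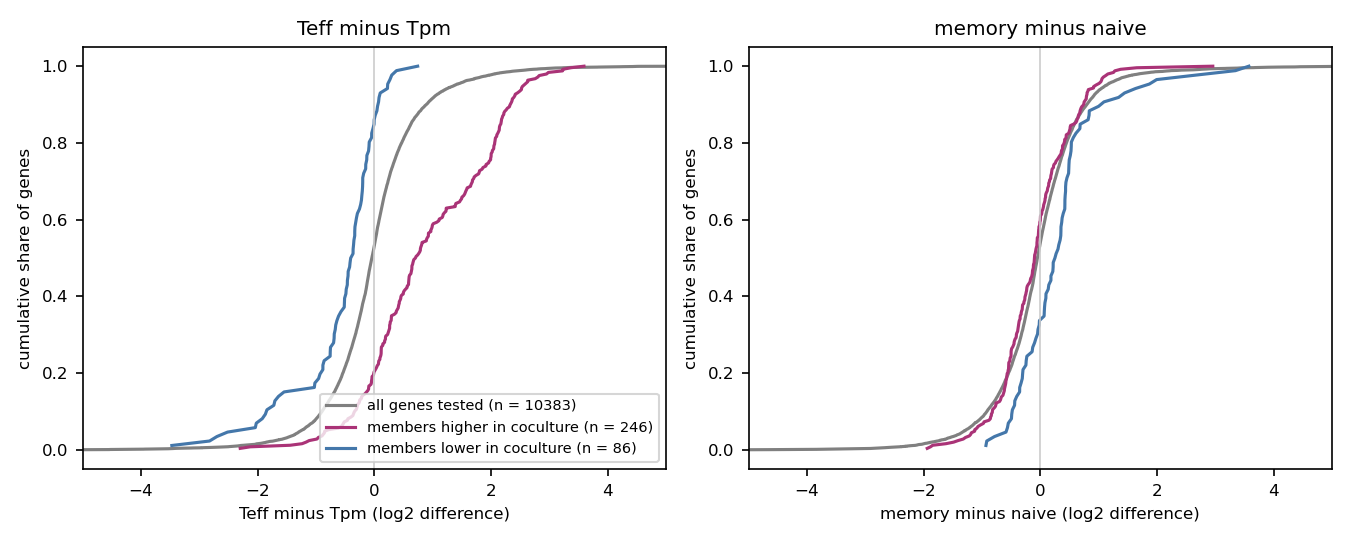
Cumulative share of genes against the log2 difference Teff minus Tpm (left) and memory minus naive (right), for all 10383 genes tested, the 246 higher and the 86 lower members. The higher members lie to the right of all genes in the left panel (medians 0.71 and -0.04), the lower members to its left.

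Markers of other cells were measured on the same arrays. Of 20 tested LSEC markers, Egfl7, a secreted endothelial protein, and Stab1, a scavenger receptor, were members, at least 12.1-fold higher and higher by 2.94 ± 0.20, while the other 2 Stab1 probes differed by -0.13 and 0.29. Egfl7 was at 8.04, 7.85, 7.89, 8.25 and 8.80 on Teff arrays, which came from coculture with dendritic cells. The list's mean was 7.17 to 7.79 on Tpm, 5.25 to 5.35 on Teff, 4.87 to 5.13 on naive and 5.05 to 6.29 on memory arrays, memory 3 being the highest of the spleen arrays. Of the 20 markers, 20 were above background on at least 1 Tpm array, 8 on a Teff, 12 on a naive and 14 on a memory array. The 12 that were not on any Teff array included Stab2, Lyve1, Cdh5, Tek and Plvap. Igfbp7, an endothelial marker, was at 10.10, 7.51 and 4.56 on memory 3, 5 and 9, 11.46, 12.02, 11.26 and 11.56 on Tpm and 7.51, 8.06, 7.88, 7.54 and 7.94 on Teff arrays, missed the rule, and met it without memory 3.

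The mean of 8 stromal markers was 6.52 to 7.51 on Tpm, 4.34 to 4.48 on Teff, 4.32 to 4.49 on naive and 4.40 to 5.60 on memory arrays, with no member. The 6 neutrophil markers had a mean of 4.63 to 7.00 on naive, 4.67 to 6.07 on memory, 4.27 to 4.56 on Tpm and 4.33 to 4.42 on Teff arrays, and S100a9, Camp, Retnlg and Csf3r were above background on no coculture array. Erythroid Alas2, Slc4a1, Hbb-bt and Hba-a1 were likewise above background on no coculture array, and Hbb-bs was on 1 Tpm array. Lists of dendritic, macrophage, B, NK, platelet, CD4 and regulatory T and hepatocyte markers had no member. The mean of 9 macrophage markers was 7.36 on Tpm 14 against 4.64 to 4.90 on the other Tpm arrays, 4.33 to 4.43 on Teff, 4.67 to 5.03 on memory and 4.72 to 6.57 on naive arrays, where naive 1 (6.42) and naive 11 (6.57) were highest. The mean of 9 dendritic cell markers was 8.85 on Tpm 14 against 6.44 to 6.75 on the other Tpm arrays, 6.39 to 6.91 on Teff, 6.29 to 7.74 on memory and 6.22 to 7.88 on naive arrays. Without Tpm 14 the rule gave 214 higher and 74 lower genes, 204 and 70 of them members. Whether these cells contribute to the other members was not tested.

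**Figure D4:**
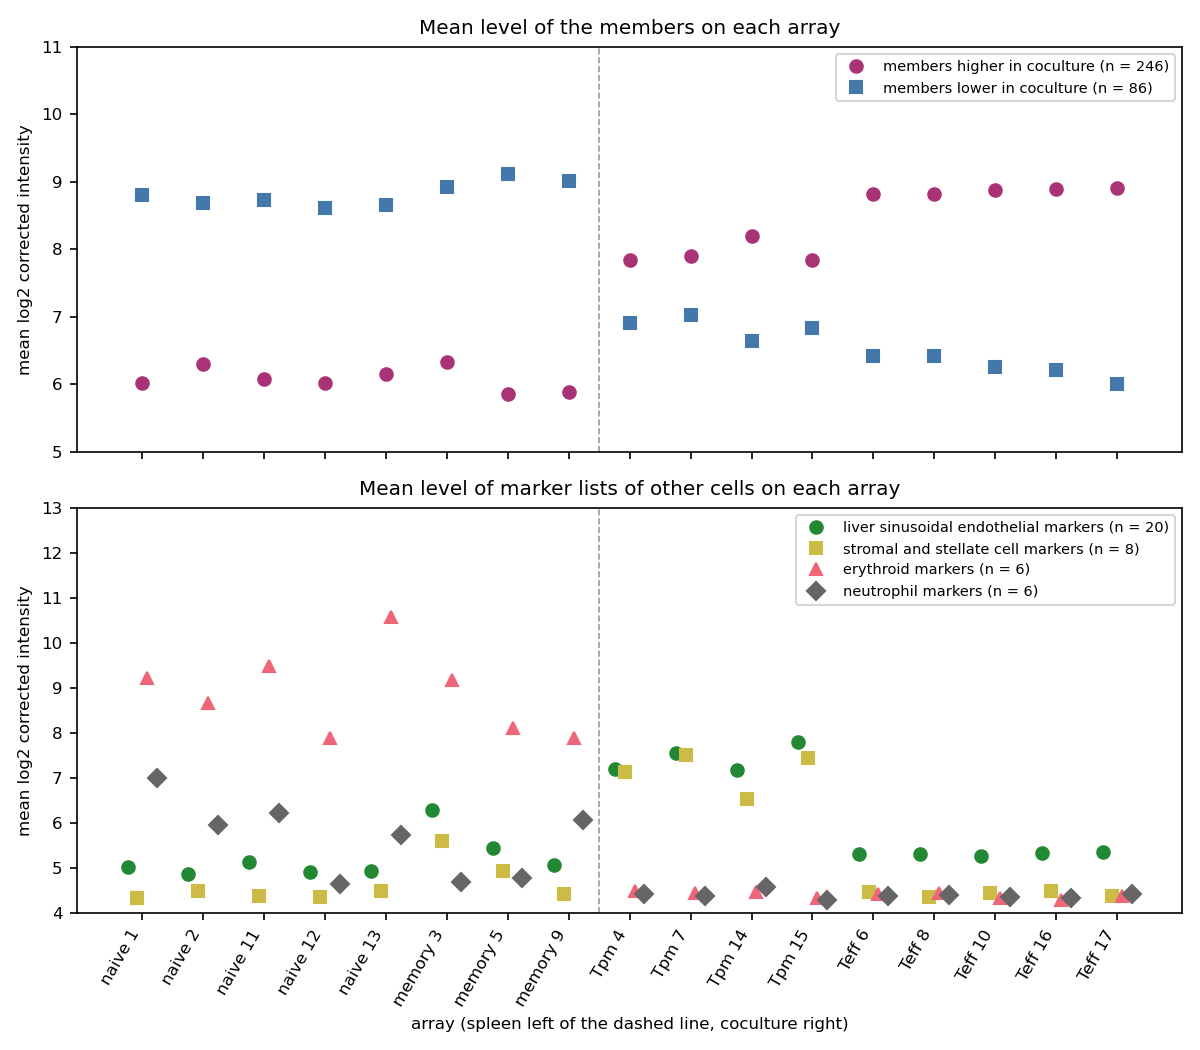
Mean log2 corrected intensity on each array of the 246 higher and 86 lower members (top) and of 4 marker lists of other cells (bottom), spleen arrays left and coculture arrays right of the dashed line. Higher members average 5.86 to 6.33 on spleen and 7.84 to 8.92 on coculture arrays, lower members 8.61 to 9.12 and 6.00 to 7.03, and the LSEC and stromal lists are highest on the Tpm arrays.

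The split between higher and lower genes depends on how the arrays are put on 1 scale. Quantile normalization gave 246 higher and 86 lower. Scaling each array to the median of all its probes gave 356 and 10 and moved the median difference of all genes to 0.63. Scaling to the median of probes above background on all arrays gave 94 and 162 (median of all genes -0.36), and to the median of the tested genes' probes 161 and 145 (-0.21). The authors' processed values, which also share quantiles and were taken without the background correction and offset used here, gave 94 and 43. Of the members, 210 higher and 10 lower were shared with the first of these settings, 85 and 81 with the second, 136 and 63 with the third, and 93 and 43 with the authors' values. Of the named members, scaling on all probes lost 6 higher and 18 lower calls, among them Klf2, Axin2, Bcl9l, Nr1d2, Flna, Irf7, Smad3, Cd2 and Tnfrsf25. Scaling on probes above background lost 19 and 1, among them Bcat1, Vegfa, Slc2a6, Tpx2, Aurkb and Cdk1, and the authors' values lost 12 and 8, among them Stab1, Scd2, Cdc45, Rgs16, Amy2a5, Rap1gap2, Lilr4b, Gzmm and Runx1.

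The threshold of 1 separates genes that differ little. Ankrd46 was just inside, with 1.0008 as the smallest of its 4 differences and levels of 7.72 to 8.44 in spleen and 8.85 to 10.06 in coculture, and Desi1 just outside at 0.9971, with 6.87 to 7.98 and 8.33 to 9.01. On the lower side Ankhd1 was just inside (-1.0084) and Pnpla7 just outside (-0.9983).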

How the data were processed

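The deposited table held linear probe intensity for 17 mouse Illumina arrays, hybridised with biotinylated cRNA, not normalized per the file headers; the scanner was not given in the sources used here. A second deposited table held the authors' intensity values, whose columns share quantiles (from the values), and was an alternative. Of 45281 probes, 34885 had 1 gene symbol. Background was corrected with normexp (offset 16), arrays were quantile normalized, and log2 values computed from the deposited intensity were tested with limma 3.58.1 (R 4.3.3) with Benjamini-Hochberg adjustment over all genes. A probe was above background past 2.326 SD over the array's background estimate, and was kept if so on 3 arrays, leaving 10383 genes, 4034 of them with several kept probes. Among named members, further probes that missed the rule included those of Shmt1 (0.78), Tyms (0.93), Sqle (2.07), Mthfd2 (1.88) and Pgam1 (2.75). Those of Rasa3 (-1.15), Hs3st3b1 (-0.99) and Ifngr2 (-1.01 and -1.49) missed it too. The test scripts were tested on simulated data. Tables and figures used Python 3.11.15, pandas 2.3.3, numpy 2.4.6 and matplotlib 3.10.9.

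Members and gene lists were chosen with earlier results of these data known. Named genes were the 15 higher and 15 lower members with the largest smallest-of-4 difference, up to 4 members of each list in each direction, a fixed set of T-cell genes and the genes beside the threshold. Other names, such as Ctla4, Pdcd1, Top2a, Ccna2, Mcm2, Mcm5, Mcm7, Ddit4, Atf4, Foxp1 and single markers, were chosen after their values were seen. Alternatives changed the normalization, offset, filter, probe choice, weights, threshold and samples.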

Additional observations from a re-analysis of the deposited data

Results flagged for a closer look

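Within groups of 4 or 5 arrays, 18 of 273 sets of values for the named genes had 1 array far from the rest by Dixon's test, which chance flags in about 1 in 20. Of these, 5 lay on Tpm 14 and 5 on Teff 17. The rate of 1 in 20 assumes normally spread measured values and does not hold for sets mostly at background. Among the flagged sets, Vegfa on naive arrays and Amy2a5, Rap1gap2 and Lilr4b on Tpm arrays each had 1 array above background. Tpm 14 also had the highest mean of the macrophage markers (7.36, against at most 4.90 on the other Tpm arrays) and of the dendritic cell markers (8.85, against at most 6.75), and whether this bears on its values was not tested. Tpm 14 was high for Rap1gap2 (5.38), Lilr4b (7.40), Nusap1 (11.06) and Tfrc (11.85) and low for Fos (7.58). Teff 17 was low for Klf2 (6.12), Rgs16 (7.57), Fos (5.27), Egr1 (10.68) and Dusp1 (8.41). Tpm 7 was high for Amy2a5 (5.44) and low for Tyms (7.07), and Teff 10 was high for Mcm10 (10.63). Among naive arrays, naive 2 was high for Vegfa (5.82) and Stab1 (6.47), naive 11 was low for Ifngr2 (8.28) and high for Igfbp7 (5.09), and naive 13 was low for Ifit3 (6.88).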

How the results depend on the processing

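The number of shared genes depended most on scaling, on the values used and on the size asked for. The authors' processed values gave 94 higher and 43 lower genes, of which 3.19% and 6.98% differed between memory and naive cells, against 5.75% of all genes. Median scaling gave 10 lower genes, of which 0% were lower in Teff cells (3.63% of all genes), and memory differed from naive cells in 19.4% of the higher and 50% of the lower (5 of 10), against 35.8% of all genes. Scaling on probes above background on all arrays, chosen after seeing the data as were the following scaling and the removal of both dim arrays, gave 94 and 162 (memory against naive 16% of the higher, 38.7% of all genes). Scaling on the tested genes' probes gave 161 and 145 (17.4% of the higher, 24.2% of all genes; 8.97% of the lower called lower in Teff cells, 8.75% of all genes). An offset of 50 gave 142 higher genes (memory against naive 4.23%, 8.13% of all genes), and the mean of all kept probes moved that share to 4.5% (10.9% of all genes). With no minimum difference there were 559 and 209, of which 32.1% of the lower were lower in Teff cells (16.2% of all genes) and 20.1% differed between memory and naive cells (21.9%). A minimum of 2 left 30 and 15, of which 16.7% were higher and 6.67% lower in Teff cells (2.25% and 1.61% of all genes) and 0% of the higher differed between memory and naive cells (3%). Against naive cells only the counts were 518 and 376 (11.4% of the lower called lower in Teff cells, 7.77% of all genes), and Ccr7 (-1.48) and Tbx21 (1.53) changed direction. Against memory cells only they were 564 and 376 (26.8% of the higher called higher in Teff cells, 7.6% of all genes). The removal of memory 3 and memory 5 together left a single memory array, so no memory against naive shares are given for it. The cause of these shifts was not tested.

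Leaving out 1 array at a time gave 214 to 268 higher genes and 74 to 90 lower genes, with 38.7% to 45.5% and 15.5% to 21.7% called for Teff against Tpm and 7.54% to 11.9% and 10% to 12.2% for memory against naive. Of the members, 152 of 246 and 56 of 86 were kept in all 17 of these settings. Of 3071 values for named genes over 32 settings, 172 lost the call, 40 gained it and 2 changed direction in a gene that was called. The other 2857 kept their call or lack of a call. A change of sign in a gene called in neither fit was counted among the 2857. Il2rb, for example, ran from -0.09 to 0.17 when single arrays were left out. No paired analysis was possible because the groups share no sample numbers. The low signal of memory 3 and memory 5 limits what the memory group can show.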

Other observations

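The members in this and the next paragraph were picked singly after their values were seen, from no list, so they stand for no group. The kinesin Kif15 was higher in coculture by 3.36 ± 0.21 (SE), with coculture arrays at 8.04 to 9.94 and spleen arrays at 4.51 to 7.35, Cdca2 by 3.39 ± 0.25 and Gtse1 by 3.25 ± 0.26. Kif15, Cdca2 and Gtse1 had no overlap between coculture and spleen arrays. The interferon-induced membrane proteins Ifitm1 and Ifitm2 were higher in coculture, by 2.56 ± 0.35 and 3.25 ± 0.26, while Irf7, Ifit3 and Ddx58 fell. The tetraspanins Cd81, Cd9 and Tspan6 were higher by 2.16 ± 0.32, 1.70 ± 0.17 and 1.77 ± 0.19, and Rps27l and Ccng1, which p53 is known to induce, by 1.65 ± 0.10 and 1.51 ± 0.22.

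Other single members were lower in coculture. Dock2, an activator of Rac, was at 4.72 to 7.36 on coculture and 7.64 to 9.02 on spleen arrays, a difference of -2.21 ± 0.20. Dock10 differed by -2.12 ± 0.22, Prex1 by -1.81 ± 0.19 and Rasgrp2, which activates Rap1, by -1.98 ± 0.19. The cyclic nucleotide phosphodiesterase Pde2a differed by -2.81 ± 0.20, the Wnt receptor Fzd5 by -1.65 ± 0.15 and the cytokine receptor kinase Jak1 by -1.64 ± 0.32, Jak1 with overlapping arrays. These differences chose the genes and are descriptions.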
